A study of Mus musculus with 9 samples.

Results

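The collagen family was taken as every gene of the deposited table whose symbol reads Col, a type number, the letter a and a chain number. The rule found 44 of 55401 genes, and 32 of the 44 passed the filter for testing, a mean of at least 0.5 FPKM (read fragments scaled to gene length and sequencing depth) over the 9 libraries. Mouse brain tissue bordering a cortical infarct was sequenced at day 28. Photothrombosis (PT), the closure of vessels by light after a photosensitive dye, was used to make the infarct. The labels call every library WT. Sham-operated mice and PT mice received ultrapure water, and the remaining PT mice were given Pushen, a commercial drug preparation. Gavage began 24 h after surgery and went on for 28 days, with water in place of the drug for the others. The labels put the Pushen dose at 391, 392 and 393 mg/kg in libraries 1, 2 and 3, which were treated as 1 group. These doses step by 1 mg/kg with the library number, and the labels do not say why, so they may not be true separate doses. Each group held 3 libraries. The sources used here give no strain, sex or age. Whether libraries stand for separate animals is not stated in the labels, and the p-values therefore cover only the library-to-library spread, which may be technical.

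Collagens are secreted or membrane proteins in which chains wind into a triple helix. Fibrillar collagens assemble into rope-like fibrils, network-forming collagens build sheets such as the basement membrane under endothelium, and fibril-associated collagens (FACITs) decorate fibril surfaces. Healthy brain tissue has little fibrillar collagen outside the meninges and large vessels, whereas a fibrous scar rich in type I and type III collagen is known to form at injury sites. New chains are hydroxylated and folded in the endoplasmic reticulum, trimmed of their propeptides outside the cell and cross-linked by lysyl oxidases.

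The libraries held between 57437342 and 75100133 counts, of which the 44 collagen genes took 39467 to 42818 per sham library, 82122 to 146616 per PT library and 62651 to 124946 per Pushen library. The labels' extraction protocol speaks of retinas while the tissue is labelled brain. Of 14 photoreceptor markers 2 passed the filter, and the 14 summed to between 3.49 and 6.97 FPKM per library, against 1043 to 1686 FPKM for 10 neuron markers. Some libraries stood apart in markers of other tissue. The 11 choroid plexus markers, led by Ttr and Enpp2, were high in 3 libraries, with sums of 630.2 FPKM (PT library 1), 720.1 FPKM (Pushen library 2) and 197.9 FPKM (Pushen library 3), against 36.3 to 82.7 in the other 6. The 10 striatal neuron markers, led by Ppp1r1b and Penk, summed to 555.2 FPKM in PT library 1 and to 69.4 to 133.9 elsewhere. The 8 microglia and macrophage markers summed to 189.5 FPKM in Pushen library 3 and to 615.7 to 796.9 in the other 5 infarct libraries. The part of these differences in the collagen values was not tested, other than by leaving libraries out.

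The upstream sequences of members that differ in response are shown first, because the response of the fibrillar genes ranged from the largest rise in the family to a fall. Each is the 250 bases before the RefSeq start of the gene on build GRCm38.p6, 5′ to 3′ on the strand of the gene. Capitals mark the letters CCAAT and the GC box GGGCGG on either strand (ATTGG and CCGCCC on the other). Col3a1, the type III collagen chain with the largest rise, Col5a3, a type V chain that also rose, Col24a1, a minor fibrillar chain that fell, and Col4a6, a basement membrane chain that rose with its neighbour Col4a5, are printed.
Col3a1, chr1:45311288-45311537, plus strand: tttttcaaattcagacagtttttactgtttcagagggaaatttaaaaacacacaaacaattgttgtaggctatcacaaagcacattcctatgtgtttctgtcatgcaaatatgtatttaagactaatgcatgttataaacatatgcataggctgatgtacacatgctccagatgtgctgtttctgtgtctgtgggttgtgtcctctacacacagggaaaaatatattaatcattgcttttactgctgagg
Col5a3, chr9:20815068-20815317, minus strand: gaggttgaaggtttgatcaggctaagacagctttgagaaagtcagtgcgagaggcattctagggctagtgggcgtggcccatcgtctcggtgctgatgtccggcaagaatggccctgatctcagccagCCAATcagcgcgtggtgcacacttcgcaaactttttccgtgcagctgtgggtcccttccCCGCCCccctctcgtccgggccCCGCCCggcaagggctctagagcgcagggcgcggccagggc
Col24a1, chr3:145292222-145292471, plus strand: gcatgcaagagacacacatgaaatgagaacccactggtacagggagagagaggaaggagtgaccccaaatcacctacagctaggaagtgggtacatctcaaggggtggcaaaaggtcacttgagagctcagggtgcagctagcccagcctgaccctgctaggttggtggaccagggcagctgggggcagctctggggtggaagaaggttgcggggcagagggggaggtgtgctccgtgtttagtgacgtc
Col4a6, chrX:141474077-141474326, minus strand: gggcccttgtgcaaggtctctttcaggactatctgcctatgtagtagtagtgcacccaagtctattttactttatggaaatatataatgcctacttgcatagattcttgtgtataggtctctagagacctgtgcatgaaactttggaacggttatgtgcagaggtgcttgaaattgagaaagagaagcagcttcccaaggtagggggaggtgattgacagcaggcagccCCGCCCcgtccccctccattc
For Col1a2, a type I chain, the 30 bases around its CCAAT are shown, with the first letter of the motif 109 bases before the RefSeq start. That start lies 804 bases inside the gene as the deposited table bounds it, and 127 of the 250 bases before it are exonic in GENCODE M21.
Col1a2, chr6:4505497-4505526, plus strand: aaaagaatggaaCCAATttaagaagccccg

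These windows differed among members that rose together. The Col3a1 window held neither motif and was 35.2% G and C, while the Col5a3 window held 1 CCAAT and 2 GC boxes at 62.8% G and C. The Col24a1 window held neither motif at 58.0% G and C. RefSeq windows were found for 35 of the 44 collagen genes, 38 in all. In 34 of the 38, the bases after the start were found in a transcript of the gene. Some starts lay far from the deposited start, by up to 52843 bases for 1 Col18a1 window. Some windows, such as those of Col4a1 and Col4a2, were exonic in all 250 bases. All 38 were kept in the counts. CCAAT on either strand was in 13 of the 38 (34.2%), against 33.9% of 32851 mouse promoters of the same length. The GC box was in 22 of 38 (57.9%), against 32.7% of all promoters. TATAAA or its complement was in 5 of 38 (13.2%), against 12.4%. The CCAAT and GC box letters shared no base in any of the 38 windows. The collagen windows were richer in G and C, with a median of 59.0% against 52.4% over all promoters. Among the 21 windows of collagen genes called higher in PT, 38.1% held CCAAT, 71.4% the GC box and 9.52% TATAAA. A match describes the letters only, and no binding was measured.

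In sham tissue the most abundant collagen per length was Col6a1, a chain of the beaded microfilaments of type VI collagen, at 18.4, 21.7 and 19.6 FPKM. It was followed by Col4a2 and Col4a1, the chains of the basement membrane collagen of every vessel, at means of 10.1 ± 0.584 and 7.41 ± 0.252 FPKM (SD, n = 3), and by Col5a1, which initiates fibrils, at 6.17 ± 0.506 FPKM. The 44 genes summed to 76.3, 77.9 and 79.9 FPKM. In PT they summed to 246.1, 186.1 and 148.9 FPKM, and in Pushen to 166.5, 197.2 and 127.4 FPKM. No infarct library overlapped with sham. Fibrillar collagens made up 20.8%, 21.7% and 23.0% of the summed collagen FPKM in sham, 47.1%, 48.7% and 45.7% in PT, and 45.3%, 47.3% and 32.7% in Pushen. Col1a1 was the most abundant collagen in 5 of the 6 infarct libraries, and Col6a1 in Pushen library 3. In bulk tissue a change in the number of cells of a type and a change in RNA per cell cannot be told apart.

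**Figure D1:**
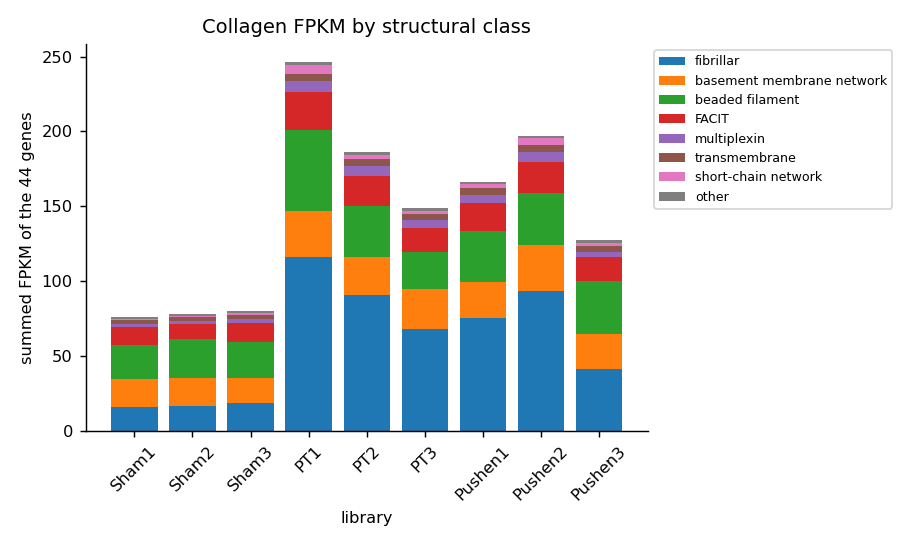
Summed FPKM of the 44 collagen genes in each of the 9 libraries (vertical axis), stacked by structural class. Sham libraries reach 76.3 to 79.9 and infarct libraries 127.4 to 246.1, with fibrillar collagens the largest class in all 6 infarct libraries.

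**Figure D2:**
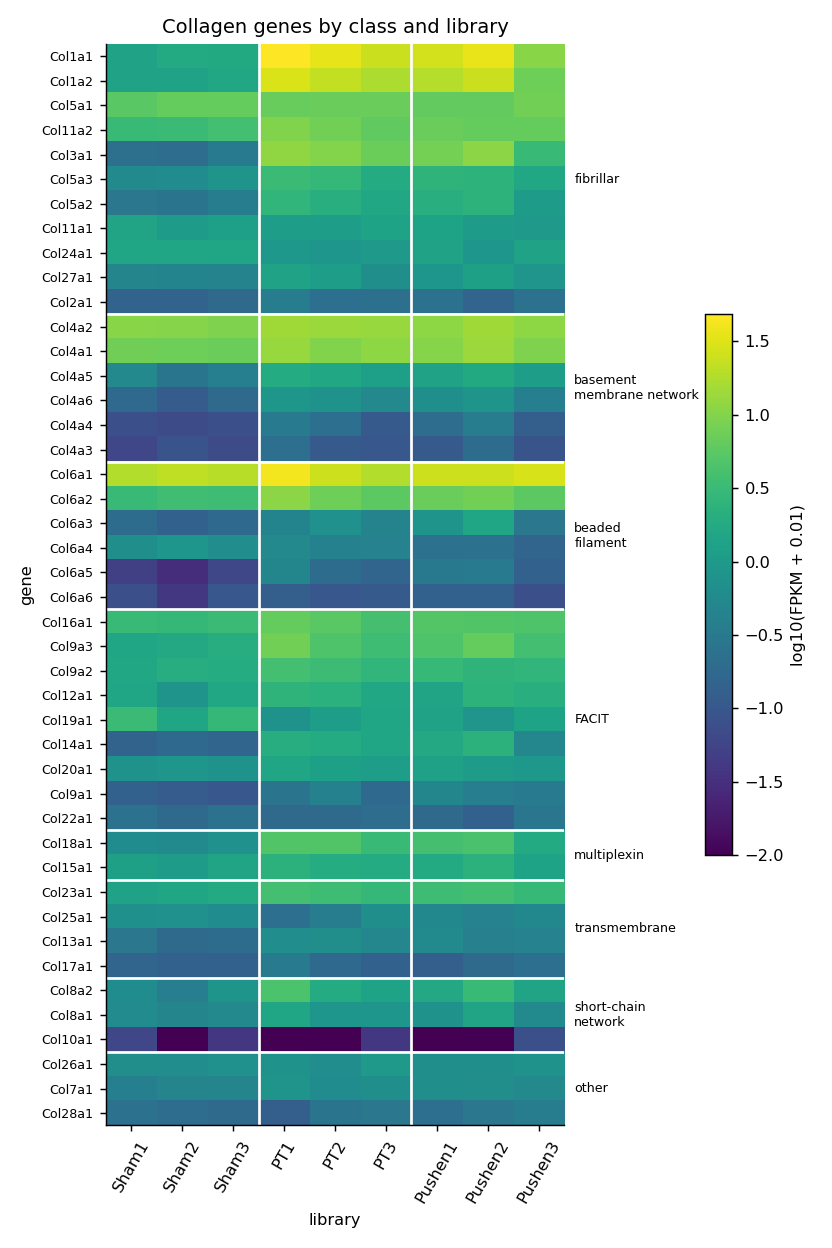
Level of each of the 44 collagen genes (rows, grouped by class) in each library (columns), as FPKM on a log10 scale. The type I and type III chains at the top change colour most between sham and infarct libraries, while Col6a1, Col4a1, Col4a2 and Col5a1 are high in all 9 libraries.

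Around the infarct most collagen genes were more abundant than in sham tissue, and the fibrillar chains of scar tissue moved most. In PT against sham, 23 of the 32 tested collagen genes rose, 2 fell and 7 did not pass, where 19.1% of all tested genes were called higher and 11.8% lower (edgeR quasi-likelihood test, adjusted p under 0.05 over 16740 genes). The PT libraries lay wholly above sham for 26 of the 32 (29.3% of all tested genes) and wholly below for 1 (18.6%). The median log2 difference of the 32 was 1.02, against 0.00 over all tested genes. Of the 23, 8 had a sham mean under 0.5 FPKM and so passed the filter through the infarct libraries. Among the other 24 tested genes, 15 rose and 2 fell. Without the filter all 44 could be fitted, and 23 were called higher and 3 lower, where 9.18% and 4.59% of 35527 genes were called. Of the 25 calls, 17 held under every alternative setting in which the gene was tested, and the other 8 are named beside their values. Col4a6, among the 17, was tested in only 11 settings, against 18 for Col1a1. It fell under the filter without any 1 of the PT libraries, so its call was not checked there.

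**Figure D3:**
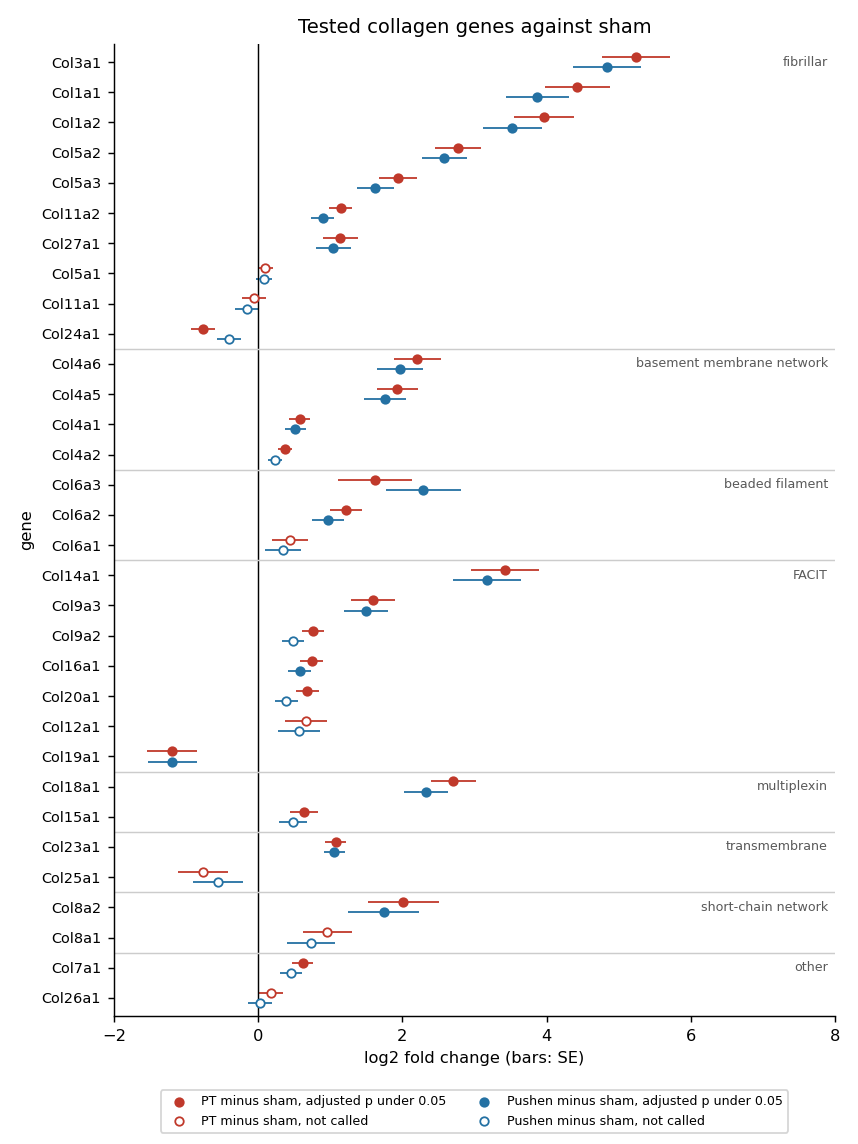
Log2 fold change with its SE (horizontal axis) of the 32 tested collagen genes, ordered by class, in PT against sham and in Pushen against sham. Filled points passed at an adjusted p under 0.05, 25 in PT and 19 in Pushen, and both comparisons use the same 3 sham libraries.

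Among fibrillar collagens 7 of 10 tested genes rose in PT, 1 fell and 2 did not pass. The class counts here and below stand beside 19.1% of all tested genes called higher and 11.8% lower. Col3a1 (ENSMUSG00000026043, chr1:45311538-45349706) encodes type III collagen, which shares fibrils with type I. It measured 0.22, 0.20 and 0.32 FPKM in sham, 11.9, 10.1 and 7.25 in PT, and 8.29, 10.9 and 3.11 in Pushen. All 6 infarct libraries were above sham, and Pushen library 3 was the lowest of them. Its log2 change in PT was 5.24 ± 0.48 (SE; adjusted p = 0.000446), a 37.7-fold rise.

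Col1a1 (ENSMUSG00000001506, chr11:94936224-94953042) encodes the main chain of type I collagen, the bulk protein of scars. It measured 1.32, 1.79 and 1.71 FPKM in sham, 48.3, 35.2 and 24.5 in PT, and 26.6, 36.8 and 10.8 in Pushen. The PT libraries were spread over a wide range, yet each was far above every sham library. Its log2 change in PT was 4.43 ± 0.45 (adjusted p = 0.00047), a 21.5-fold rise. Col1a2 (ENSMUSG00000029661, chr6:4504814-4541544), the partner chain, went from 1.31, 1.33 and 1.58 FPKM in sham to 29.7, 22.3 and 16.8 in PT, a log2 change of 3.97 ± 0.42 (adjusted p = 0.000491). The order of the libraries was the same in Col1a2 as in Col1a1 within PT and within Pushen. The ratio of Col1a1 to Col1a2 FPKM was 1.15 ± 0.178 in sham, 1.55 ± 0.0864 in PT and 1.45 ± 0.0421 in Pushen (SD, n = 3).

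Type V collagen sits in the core of type I fibrils and sets their diameter, and its 3 chains differed in response. Col5a2 rose by a log2 of 2.77 ± 0.32 (adjusted p = 0.000611), from 0.28, 0.25 and 0.35 FPKM in sham to 2.62, 2.11 and 1.56 in PT. Col5a3 rose by 1.94 ± 0.26 (adjusted p = 0.00105). Col5a1, the most abundant of the 3 in sham, measured 5.59, 6.44 and 6.49 FPKM in sham and 6.65, 7.0 and 6.98 in PT, and its log2 difference of 0.10 ± 0.11 did not pass (adjusted p = 0.507). The ratio of Col5a1 to Col5a2 FPKM was thus 21.4 ± 3.82 in sham and 3.44 ± 0.974 in PT. Col3a1 and Col5a2 lie tail to tail on chromosome 1, 24.6 kb apart.

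Type XI collagen is best known from cartilage, where it nucleates type II fibrils. Col11a2 rose by a log2 of 1.15 ± 0.16 (adjusted p = 0.00127), while Col11a1 measured 1.20 ± 0.186 FPKM in sham and 1.20 ± 0.123 in PT and did not pass. Col2a1, the type II chain, was too low for testing, at 0.14, 0.14 and 0.18 FPKM in sham and 0.36, 0.21 and 0.22 in PT. Col27a1, a minor fibrillar chain of cartilage, rose by 1.14 ± 0.24 (adjusted p = 0.00826). Col24a1 (ENSMUSG00000028197, chr3:145292472-145552011), a minor fibrillar chain known from bone and cortex, was the fibrillar gene that fell. It measured 1.45, 1.46 and 1.49 FPKM in sham, 0.91, 0.84 and 0.93 in PT, and 1.30, 0.86 and 1.31 in Pushen. The sham libraries were almost equal and lay above all 6 infarct libraries. Its log2 change in PT was -0.76 ± 0.17 (adjusted p = 0.00911). The 10 neuron markers, led by Snap25 and Syp, were called lower in 7 of 10 cases, where 11.8% of all tested genes were. Their sums were 1502 to 1686 FPKM in sham and 1043 to 1273 in PT. The part of this difference in the Col24a1 value was not tested.

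**Figure D4:**
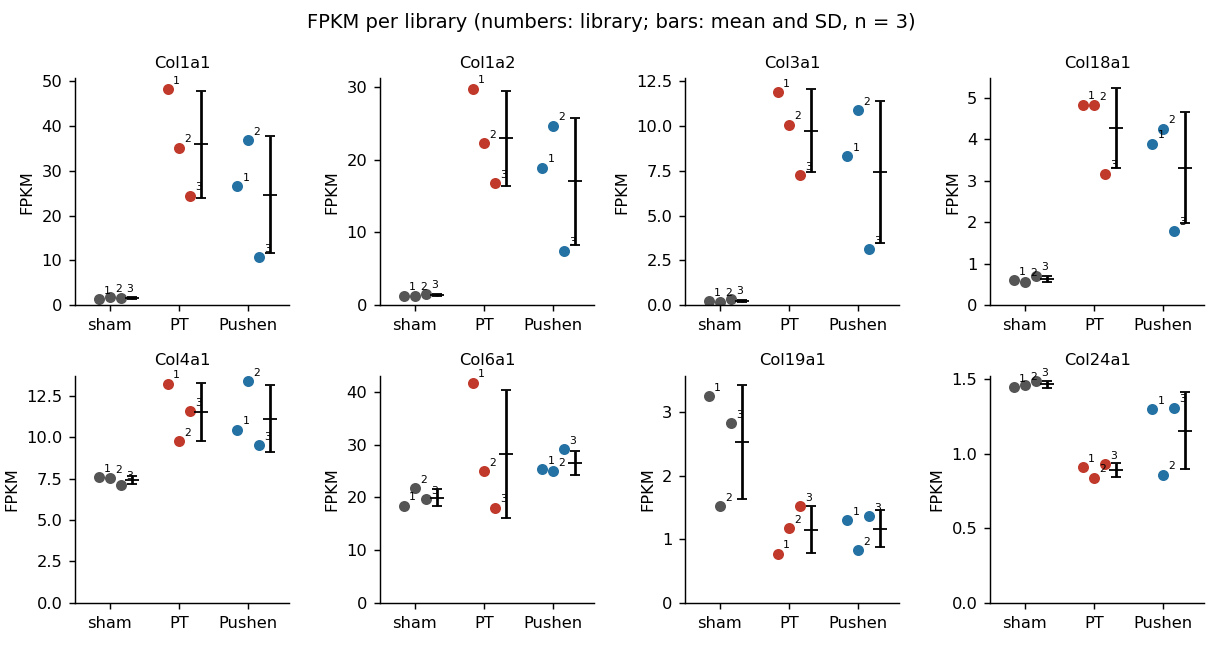
FPKM in each library (points, numbered by library) of 8 collagen genes, with the mean and SD of the 3 libraries of a group (bars). Sham and infarct libraries are apart for Col1a1, Col1a2, Col3a1, Col18a1, Col4a1 and Col24a1, and Col6a1 and Col19a1 show overlap between sham and PT.

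All 4 tested chains of basement membrane collagen rose in PT, the 2 scarce ones by more than the 2 abundant ones in fitted size. Col4a6, a chain of specialised basement membranes, went from 0.17, 0.11 and 0.18 FPKM in sham to 0.89, 0.77 and 0.54 in PT, a log2 change of 2.21 ± 0.33 (adjusted p = 0.00164). Col4a5, its partner, went from 0.53, 0.26 and 0.38 FPKM to 1.86, 1.59 and 1.20, a change of 1.93 ± 0.29 (adjusted p = 0.00171). These 2 genes start 1.31 kb apart, head to head on the X chromosome, and their FPKM ratio was 2.53 ± 0.524 in sham and 2.13 ± 0.0845 in PT. Col4a1 rose from 7.58, 7.53 and 7.12 to 13.2, 9.75 and 11.6 FPKM, a log2 change of 0.58 ± 0.14 (adjusted p = 0.0163). Col4a2 rose from 10.6, 10.2 and 9.45 to 14.4, 13.3 and 13.0 FPKM, a change of 0.37 ± 0.10 (adjusted p = 0.0219). Both changes are small, but no PT library fell within the sham range. The Col4a1 call was lost without sham library 2, sham library 3 or PT library 1 (adjusted p = 0.0502, 0.0533 and 0.0521), and the Col4a2 call without the same 3 libraries (adjusted p = 0.0646, 0.0764 and 0.0621) or without the filter (adjusted p = 0.0554). Col4a3 and Col4a4, the kidney and cochlear chains, start 71 bases apart head to head and stayed under 0.4 FPKM in every library, below the filter. Neither passed in the fit without the filter, at 0.92 ± 0.43 (adjusted p = 0.217) and 1.55 ± 0.47 (adjusted p = 0.0572), and that fit called 3 of the 6 type IV chains higher. The FPKM ratio of Col4a1 to Col1a1 was 4.70 ± 0.899 in sham, 0.341 ± 0.114 in PT and 0.546 ± 0.292 in Pushen. Endothelial markers, led by Cldn5 and Ly6c1, were called higher in 8 of 10 cases, where 19.1% of all tested genes were. These markers summed to 65.8 to 66.4 FPKM in sham and 85.9 to 114.9 in PT, and their part in the type IV values was not tested.

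Type VI collagen forms microfilaments next to cells, from Col6a1, Col6a2 and a further chain. Col6a2 rose in PT from 3.02, 3.55 and 3.41 to 11.1, 7.33 and 5.63 FPKM, a log2 change of 1.21 ± 0.22 (adjusted p = 0.00446). Col6a1 (ENSMUSG00000001119, chr10:76708792-76726168), which lies 85.2 kb away on the same strand, measured 41.7, 24.9 and 18.1 FPKM in PT, the last below every sham library. Its log2 difference of 0.44 ± 0.25 did not pass (adjusted p = 0.21) and turned on single libraries, being 0.05 without PT library 1 and 0.67 without PT library 3, where it passed (adjusted p = 0.032). Col6a3 rose from 0.19, 0.13 and 0.17 to 0.45, 0.73 and 0.43 FPKM, a change of 1.62 ± 0.51 (adjusted p = 0.0404). That call was lost without any of the sham libraries 1, 2 and 3 or PT libraries 1 and 3, with adjusted p between 0.0502 and 0.12, and also without the filter, with the replicate block and in both limma fits. The FPKM ratio of Col6a1 to Col6a2 was 5.99 ± 0.201 in sham, 3.45 ± 0.276 in PT and 4.0 ± 1.01 in Pushen.

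The 3 later type VI chains, Col6a4, Col6a5 and Col6a6, lie in a row on chromosome 9 and were too low for testing. Col6a4 (ENSMUSG00000032572, chr9:105989454-106072409) measured 0.67, 0.84 and 0.62 FPKM in sham, 0.54, 0.40 and 0.42 in PT, and 0.23, 0.23 and 0.15 in Pushen. The 3 groups did not overlap, sham being highest and Pushen lowest. Of all tested genes 18.6% lay wholly lower in PT than in sham, and 5.19% wholly lower in Pushen than in PT. In the fit without the filter the log2 difference of Col6a4 in PT against sham was -0.72 ± 0.21 (adjusted p = 0.0493). It was -1.90 ± 0.22 in Pushen against sham (adjusted p = 0.0008) and -1.18 ± 0.22 in Pushen against PT, which did not pass (adjusted p = 0.76). Col6a4 shares 1.49% of its exonic bases with Gm36993 and 1.90% with Gm47575 on the opposite strand, and whether counting was stranded is not stated. Its neighbour Col6a5 went from 0.04, 0.02 and 0.05 FPKM in sham to 0.48, 0.19 and 0.15 in PT, and passed without the filter at a log2 change of 2.78 ± 0.56 (adjusted p = 0.0096). Col6a6 stayed between 0.03 and 0.13 FPKM.

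Of the fibril-associated collagens 5 of 7 tested genes rose in PT, 1 fell and 1 did not pass. Col14a1, which binds the surface of mature fibrils, had the largest rise of the class, from 0.14, 0.17 and 0.15 FPKM in sham to 1.95, 1.84 and 1.46 in PT. Its log2 change was 3.42 ± 0.48 (adjusted p = 0.00124), a 10.7-fold rise. Type IX collagen coats cartilage fibrils, and its chains Col9a3 and Col9a2 rose by 1.59 ± 0.31 (adjusted p = 0.00541) and 0.76 ± 0.15 (adjusted p = 0.00572). Col9a3 measured 7.9 FPKM in PT library 1 and 4.61 and 3.50 in the other 2, against 1.47 to 1.96 in sham. Its exons share 6.07% of their bases with Tcfl5 on the opposite strand, the largest such share in the family. Col16a1, found at dermal and cartilage fibrils, rose by 0.74 ± 0.16 (adjusted p = 0.00877), and Col20a1 by 0.68 ± 0.16 (adjusted p = 0.0135); the Col20a1 call was lost when PT library 1 and Pushen library 2 were left out together (adjusted p = 0.0612). Col12a1, which links fibrils in tendon, measured 1.27 ± 0.407 FPKM in sham and 2.09 ± 0.45 in PT and did not pass (log2 difference 0.66 ± 0.29, adjusted p = 0.113).

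Col19a1 (ENSMUSG00000026141, chr1:24261890-24587472) was the fibril-associated gene that fell. In mouse brain it is made by neurons and is known for a part in the formation of inhibitory synapses. It measured 3.25, 1.52 and 2.82 FPKM in sham, 0.77, 1.17 and 1.52 in PT, and 1.30, 0.83 and 1.36 in Pushen. Sham library 2 and PT library 3 had equal values, so the groups touched. The log2 change in PT was -1.19 ± 0.34 (adjusted p = 0.0292), and the call was lost without sham library 1, sham library 3, PT library 1 or PT library 2 (adjusted p = 0.104, 0.0747, 0.0909 and 0.0729), or without PT library 1 and Pushen library 2 together (adjusted p = 0.0794). Col9a1 ends 9.2 kb from the end of Col19a1 and went the other way, from 0.13, 0.11 and 0.09 FPKM in sham to 0.25, 0.41 and 0.17 in PT. It was too low for the main test and passed without the filter at 1.20 ± 0.34 (adjusted p = 0.0458). Col22a1 stayed between 0.13 and 0.27 FPKM in all 9 libraries.

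Both multiplexins, collagens of vascular basement membrane zones with long interrupted helices, rose in PT. Col18a1, the source of the anti-angiogenic fragment endostatin, went from 0.60, 0.57 and 0.71 FPKM in sham to 4.84, 4.82 and 3.17 in PT, with 3.90, 4.26 and 1.80 in Pushen. Its log2 change in PT was 2.71 ± 0.31 (adjusted p = 0.000632), a 6.53-fold rise. Col15a1 rose by 0.64 ± 0.19 (adjusted p = 0.0345), from 1.25, 1.07 and 1.40 FPKM to 2.35, 1.88 and 1.84. That call was lost without any 1 of sham libraries 1, 2 and 3, PT libraries 1 and 2, or Pushen library 1, with adjusted p between 0.0503 and 0.113, and also without the filter, with the replicate block, and without PT library 1 and Pushen library 2 together (adjusted p = 0.0619).

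The transmembrane collagens were split. Col23a1 rose by a log2 of 1.07 ± 0.15 (adjusted p = 0.00116), from 1.31, 1.52 and 1.78 to 3.79, 3.41 and 2.88 FPKM. Col25a1, a neuronal collagen found in amyloid plaques, measured 0.70, 0.73 and 0.61 FPKM in sham and 0.21, 0.36 and 0.68 in PT. Its log2 difference of -0.76 ± 0.35 did not pass (adjusted p = 0.126), and it passed at -1.31 without PT library 3 (adjusted p = 0.00469). Col13a1, which is concentrated at neuromuscular junctions, was under the filter and passed without it at 1.35 ± 0.25 (adjusted p = 0.007), from 0.28, 0.18 and 0.19 to 0.62, 0.66 and 0.50 FPKM. Col17a1, a hemidesmosome collagen of skin, stayed between 0.12 and 0.32 FPKM.

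Of the short-chain collagens, Col8a2, a network chain of vessel walls and cornea, rose from 0.61, 0.37 and 0.80 to 4.30, 1.85 and 1.36 FPKM. Its log2 change of 2.02 ± 0.49 (adjusted p = 0.0156) was 1.38 without PT library 1, and the call was lost without sham library 1 or sham library 2 (adjusted p = 0.0534 and 0.0565). Its partner Col8a1 measured 0.527 ± 0.0551 FPKM in sham and 1.06 ± 0.361 in PT and did not pass (log2 difference 0.96 ± 0.34, adjusted p = 0.0584). Col8a1 passed in 5 of 17 alternative settings. These were the fits without Pushen library 2 or Pushen library 3 (adjusted p = 0.024 and 0.0365), DESeq2 (0.0197), only the compared groups (0.0284), and without PT library 1 and Pushen library 2 together (0.0456). Col10a1, the collagen of hypertrophic cartilage, was nearly absent, with 20 counts in all 3 sham libraries together and 8 in PT. Col7a1, which forms anchoring fibrils in skin, rose by 0.62 ± 0.15 (adjusted p = 0.0139), a call lost without sham library 1 (adjusted p = 0.0536), in both limma fits (adjusted p = 0.0643 and 0.0604) and without PT library 1 and Pushen library 2 together (adjusted p = 0.0599). Col26a1 did not pass, at 0.67 ± 0.0458 FPKM in sham and 0.79 ± 0.161 in PT. Col28a1 was under the filter, between 0.12 and 0.34 FPKM. Without the filter, Col2a1, Col6a6, Col10a1, Col17a1, Col22a1 and Col28a1 did not pass in PT against sham, with log2 differences from -1.33 (Col10a1) to 0.66 (Col2a1).

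The genes that make, trim, cross-link, bind and break down collagen were counted in 6 lists, chosen with earlier results of these data known. In PT against sham 14 of 21 tested genes of chain modification and folding were called higher, 4 of 5 of propeptide removal, 4 of 4 of cross-linking, 9 of 9 receptors, 4 of 5 of degradation and 6 of 7 leucine-rich proteoglycans, where 19.1% of all tested genes were. Some of these genes passed the filter through the infarct libraries. Without the filter the counts called higher were 13 of 21, 3 of 9, 4 of 5, 8 of 11, 4 of 7 and 6 of 7 in the same order, where 9.18% of all genes were. No gene of these 6 lists was called lower in either fit. Serpinh1, the collagen-specific chaperone HSP47, rose from 3.94, 4.06 and 4.75 to 21.2, 19.7 and 15.1 FPKM, a log2 change of 2.08 ± 0.15 (adjusted p = 0.000446). P4ha3, a prolyl hydroxylase subunit, rose by 2.41 ± 0.31, Creb3l1, a transcription factor of collagen secretion, by 1.82 ± 0.20 and Plod1, a lysyl hydroxylase, by 1.46 ± 0.19. Among propeptide genes Pcolce, the enhancer of the C-proteinase, rose by 2.41 ± 0.25, Adamts2, the N-proteinase, by 1.33 ± 0.19, Pcolce2 by 0.52 ± 0.16 and Bmp1, the C-proteinase, by 0.39 ± 0.13.

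The lysyl oxidases, which cross-link collagen, rose in all 4 tested cases. Lox went from 0.20, 0.14 and 0.15 FPKM in sham to 3.12, 3.16 and 2.18 in PT and 2.96, 3.86 and 1.40 in Pushen, a log2 change in PT of 4.06 ± 0.38 (adjusted p = 0.000461). Loxl2, Loxl1 and Loxl3 rose by 3.80 ± 0.56, 3.35 ± 0.35 and 1.84 ± 0.26. Of the receptors, Mrc2, an endocytic collagen receptor, rose by 2.29 ± 0.25, the discoidin receptor Ddr2 by 1.22 ± 0.18, the integrin chain Itgb1 by 1.01 ± 0.14 and Adgrg1, a brain receptor for type III collagen, by 0.77 ± 0.12. Mmp14, a membrane collagenase, rose by 2.86 ± 0.27, Mmp2 by 2.99 ± 0.43 and the collagen-cutting cathepsin Ctsk by 1.80 ± 0.26. Mmp13, a collagenase, was counted 4 times in the sham libraries together, 2972 times in PT and 2447 times in Pushen. Of the proteoglycans that bind fibrils, Lum rose by 4.29 ± 0.45, Dcn by 3.83 ± 0.36, Bgn by 2.63 ± 0.36 and Fmod by 0.84 ± 0.11. Dcn and Lum are also in the fibroblast marker list.

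**Figure D5:**
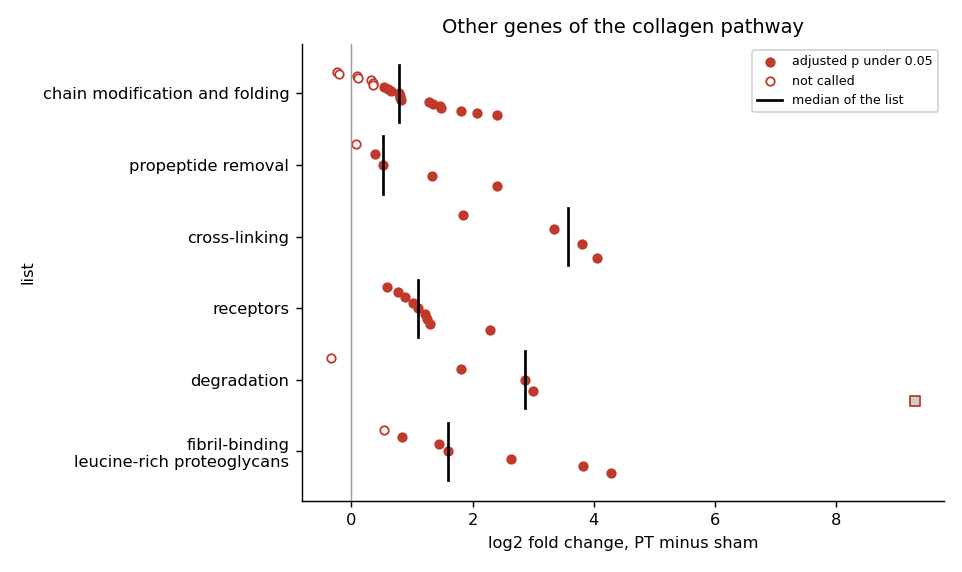
Log2 fold change in PT against sham of the tested genes of 6 lists of the collagen pathway (points) with the median of each list (bar). Filled points passed at an adjusted p under 0.05, and the grey square is Mmp13, whose fitted value rests on 4 sham counts.

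Markers of fibroblasts and mural cells, which are known to make collagen, were higher in PT. The counts below stand beside 19.1% of all tested genes called higher. The 10 tested fibroblast markers were all called higher in PT, and the 12 of the list, led by Apod and Mgp, summed to 63.8 to 72.1 FPKM in sham, 329.0 to 506.3 in PT and 441.2, 522.8 and 259.1 in Pushen. Pericyte and smooth muscle markers, led by Rgs5 and Pdgfrb, were called higher in 6 of 10 cases and summed to 37.4 to 41.9 FPKM in sham and 64.8 to 80.2 in PT. Markers of other cells were also higher in PT. Astrocyte markers were called higher in 6 of 7 cases, with sums of 246.1 to 279.8 FPKM in sham and 521.5 to 805.8 in PT, and oligodendrocyte markers in 6 of 7, with sums of 366.8 to 497.7 and 512.4 to 976.6. Microglia and macrophage markers were called higher in 6 of 8 cases, with sums of 30.7 to 42.0 FPKM in sham. The other 2 had log2 differences below 0, the lowest -0.33, and were not called. Oligodendrocyte progenitor markers were called higher in 4 of 6 cases, with 1 below 0 and not called. The lists overlap: Pdgfra is in both the fibroblast and the progenitor list, and Cspg4 in both the pericyte and the progenitor list. Some markers may have passed the filter through the infarct libraries. Without the filter 11 of 12 fibroblast, 6 of 10 pericyte and smooth muscle and 6 of 7 astrocyte markers were called higher. So were 5 of 7 oligodendrocyte, 6 of 8 microglia and macrophage and 3 of 6 progenitor markers, where 9.18% of all genes were. The part of any of these cells in the collagen values was not tested. The 6 infarct libraries also differed among themselves. PT library 1 had the highest FPKM of the 6 in 23 of the 32 tested collagen genes, against 27.5% of all tested genes. Pushen library 3 had the lowest in 16 of the 32, against 22.4% of all tested genes. With PT library 1 and Pushen library 2 left out together, 19 of 30 tested collagen genes were called higher in PT and 1 lower. In that fit 2388 of all 16550 tested genes were called higher and 974 lower.

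No collagen gene was called in Pushen against PT, in either direction, and neither was any other tested gene, so the background was 0% higher and 0% lower. None of the 32 had an unadjusted p under 0.05 in edgeR, where 1086 of 16740 genes did, and DESeq2 called 49 genes and no collagen gene. Pushen libraries lay wholly above or below PT for 0 of the 32, where 7.25% of all tested genes were wholly higher and 5.19% wholly lower. The log2 difference was below 0 for 28 of the 32, with a median of -0.16, and for 8653 of the 16740 genes. Without Pushen library 3 it was below 0 for 21 of 32, and without PT library 1 for 18 of 31. A p that misses the threshold does not show that the groups were alike.

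For Col1a1 the log2 difference between Pushen and PT was -0.55 ± 0.39 (adjusted p = 0.721). It was -0.20 without Pushen library 3, -0.28 without PT library 1 and -0.96 without Pushen library 2. For Col1a2 it was -0.44 ± 0.37, for Col3a1 -0.40 ± 0.39 and for Col18a1 -0.38 ± 0.29, and without Pushen library 3 these were -0.09, -0.04 and -0.09. The Col1a2, Col3a1 and Col18a1 differences were -0.21, -0.24 and -0.28 without PT library 1, and -0.81, -0.78 and -0.60 without Pushen library 2. The values of these 4 genes therefore moved with single libraries of both groups, and came nearest 0 without Pushen library 3. Col6a3 had the highest difference of the 32, at 0.67 ± 0.49, with 0.81, 1.5 and 0.28 FPKM in Pushen and 0.45, 0.73 and 0.43 in PT. Col24a1 followed at 0.36 ± 0.16 (adjusted p = 0.707), with 2 Pushen libraries above all 3 PT libraries and Pushen library 2 within their range.

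Pushen-treated infarct tissue also differed from sham in most collagen genes. Of the 32 tested, 18 were called higher, 1 lower and 13 did not pass, where 13.5% of all tested genes were called higher and 2.73% lower. Here too, 8 of the 32 had a sham mean under 0.5 FPKM and passed the filter through the infarct libraries. Among these 8 were Col3a1, Col5a2, Col4a5, Col4a6, Col6a3 and Col14a1, all of them also among the 18 called higher. Without the filter 17 of 44 were called higher and 1 lower, where 2295 and 313 of 35527 genes were. The Pushen libraries lay wholly above sham for 23 of the 32 (27.2% of all tested genes) and wholly below for 3 (13.1%). The median log2 difference was 0.81, against -0.01 over all tested genes. This comparison and that of PT share the sham libraries, so their values stand side by side and are not independent. Col3a1 was higher by 4.84 ± 0.47 (adjusted p = 0.000546), Col1a1 by 3.87 ± 0.44 (adjusted p = 0.000834), Col1a2 by 3.53 ± 0.41 (adjusted p = 0.000898) and Col14a1 by 3.17 ± 0.47 (adjusted p = 0.00252). The corresponding values in PT were 5.24, 4.43, 3.97 and 3.42. The log2 differences of the other genes called higher, leaving aside type IV, ran from 0.58 ± 0.16 for Col16a1 to 2.58 ± 0.31 for Col5a2, with Col18a1 at 2.33 ± 0.31 and Col6a3 at 2.29 ± 0.52. Of the type IV chains, Col4a6, Col4a5 and Col4a1 passed at 1.97 ± 0.32, 1.76 ± 0.29 and 0.52 ± 0.14, and Col4a2 did not at 0.23 ± 0.10 (adjusted p = 0.141).

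The gene called lower in Pushen against sham was Col19a1, at -1.19 ± 0.34 (adjusted p = 0.0462), and here every Pushen library was below every sham library. Col24a1 and Col25a1 were also wholly below sham but did not pass, at -0.41 ± 0.16 and -0.56 ± 0.34 (adjusted p = 0.125 and 0.3). Col9a2, Col20a1, Col7a1, Col15a1 and Col4a2, called in PT, were not called here, at 0.48 ± 0.15, 0.39 ± 0.16, 0.45 ± 0.15, 0.48 ± 0.19 and 0.23 ± 0.10. The difference between the groups in each of these was tested directly in Pushen against PT and did not pass. Of the 19 calls, 11 held under every alternative setting in which the gene was tested: Col1a1, Col1a2, Col3a1, Col5a2, Col5a3, Col11a2, Col4a5, Col4a6, Col14a1, Col18a1 and Col23a1. Col4a6 was tested in only 11 settings, against 18 for Col1a1. It fell under the filter without any 1 PT library, Pushen library 1 or Pushen library 2, so its call was not checked there. The other 8 of the 19 calls were lost without single libraries. Col19a1 reached an adjusted p of 0.148 without sham library 1 and 0.152 without Pushen library 2, and was also lost without sham library 3, PT library 2, Pushen library 1 or Pushen library 3. Col4a1, Col16a1 and Col8a2 were lost without any 1 of the sham libraries, Pushen library 1 or Pushen library 2, with adjusted p up to 0.128, 0.132 and 0.147. Col4a1 was also lost without PT library 3, Col16a1 and Col8a2 without PT library 2, and Col16a1 without Pushen library 3. Col6a2 was lost without any 1 of the sham libraries, Pushen library 1 or Pushen library 2, Col27a1 without any 1 of the sham libraries or Pushen library 2, Col6a3 without any 1 of the sham libraries, and Col9a3 without sham library 1, with adjusted p up to 0.0733, 0.0708, 0.0747 and 0.0514. Without the filter Col4a1, Col8a2, Col16a1 and Col19a1 were also lost (adjusted p = 0.0666, 0.0549, 0.0619 and 0.055). With the replicate block Col4a1, Col8a2 and Col16a1 were lost (adjusted p = 0.0771, 0.0821 and 0.0506). Without PT library 1 and Pushen library 2 together Col4a1 and Col19a1 were lost (adjusted p = 0.0554 and 0.0975). Of the limma fits, both lost Col19a1 (adjusted p = 0.0711 and 0.0658) and Col6a3 (0.0533 and 0.0845), and that on log2(FPKM + 1) also lost Col27a1 (0.0584) and Col8a2 (0.0815). In the other direction, Col9a2 passed without PT library 1 or PT library 3 (adjusted p = 0.0335 and 0.0348), Col7a1 without PT library 1 or Pushen library 3 (adjusted p = 0.0437 and 0.0473) and Col15a1 without Pushen library 3 (adjusted p = 0.0394). Fitted with only the compared groups, Col6a1 passed higher (adjusted p = 0.0438), Col9a2 higher (adjusted p = 0.0366) and Col25a1 lower (adjusted p = 0.0249). Col9a2 and Col7a1 also passed in DESeq2 (adjusted p = 0.0196 and 0.0295), and Col9a2 in limma on log2(FPKM + 0.1) (adjusted p = 0.0393).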

How the data were processed

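RNA libraries of 3 groups of 3 were compared. Per the file headers, the authors deposited raw counts for each gene in each library, beside FPKM values that they had normalised to gene length and depth. The kit was Illumina TruSeq, per the labels' protocols. Bowtie 0.12.2 and build mm8 are named, per the submitters' processing notes, while 51957 of 55141 gene identifiers (94.2%) and 38 of 44 collagen genes have GRCm38 coordinates (GENCODE M21). How reads were counted, and whether by strand, is not given in the sources used here. Column names identified the library of each of the 18 value columns. Of the collagen genes 13 share exonic bases with another gene, 6.07% at most, so their counts are to that extent uncertain.

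The test took genes averaging 0.5 FPKM or more, and the 3 groups were fitted together on the counts with edgeR 4.0.16 in R 4.3.3 (TMM scaling, quasi-likelihood test, Benjamini-Hochberg adjustment over 16740 genes per comparison). An adjusted p under 0.05 was called. SE is the log2 difference over the root of its F statistic. Levels are FPKM, with the SD of 3 libraries. Per-library counts over genes differed by more than sampling noise in every pair of a group (chi-square per gene 47.1 to 167). As a check of the code only, the fit was also run on counts simulated with the spread of these libraries, and no result here rests on it. The members, lists, tests and alternatives were chosen with earlier results of these data known; the rule names every collagen gene, up to 4 genes of smallest p per pathway list and 2 markers per list. Alternatives were DESeq2 1.42.0, its size factors, limma 3.58.1 on log2(FPKM + 0.1) and log2(FPKM + 1), other filters, fits of only the compared groups, a replicate block, and leaving out libraries. Dose was not modelled. Motifs were searched as exact letters on both strands of RefSeq windows on GRCm38.p6. The 12 collagen genes under the filter have levels only, and a test only where said. Plots used matplotlib 3.10.9 under Python 3.11.15.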

Additional observations from a re-analysis of the deposited data

How the results depend on the processing

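No collagen gene changed the sign of a called difference under any alternative. Over the tested collagen genes and alternatives, 515 single values for PT against sham kept their side of the threshold, 37 lost it and 7 gained it; the counts were 495, 53 and 11 for Pushen against sham, and all 559 for Pushen against PT stayed uncalled. In PT against sham 5176 genes were called in all, between 3236 and 5804 with 1 library left out and 3362 without PT library 1 and Pushen library 2. Collagen genes called higher numbered 23, between 18 and 24 with 1 library left out, and those called lower numbered 2, between 1 and 3 with 1 library left out, 3 without the filter and 1 without PT library 1 and Pushen library 2. With 1 library left out, 30 to 32 collagen genes were tested. Of all genes 2393 to 3359 were then called higher in PT and 788 to 2445 lower. In Pushen against PT 0 genes were called, 49 by DESeq2, 1 with only the compared groups, 2 without PT library 1 and Pushen library 2, and between 0 and 6 with 1 library left out. In Pushen against sham 2718 genes were called, between 1550 and 3668 with 1 library left out; collagen genes called higher numbered 18, between 11 and 19, and those called lower 1, between 0 and 1, with 2 for only the compared groups and 0 in both limma fits and without PT library 1 and Pushen library 2. In that comparison 1467 to 2530 of all genes were called higher with 1 library left out, and 83 to 1138 lower. The cause of these changes in count was not tested, beyond the loss of a library. Leaving out a library also moved the split of calls: without sham library 1, 2448 genes were higher and 788 lower in PT, against 3202 and 1974 in the full fit. The median log2 difference over all genes lay between -0.03 and 0.05 in every comparison and setting. Same-numbered libraries of different groups did not deviate together (correlations of deviations between -0.22 and 0.10), so the numbers were not taken as pairs. With the replicate number as a block, 21 collagen genes were called higher and 2 lower in PT, 0 in Pushen against PT, and 15 higher and 1 lower in Pushen against sham, of 4266, 0 and 2108 genes. Depth limits Col10a1 most, with 20 counts over the sham libraries.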
